A study of Mus musculus with 9 samples.

Results

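Widely used marker genes of the epithelial-mesenchymal transition (EMT) were examined in MyC-CaP, a mouse prostate cancer cell line that the sample labels describe as epithelial-like. The 10 genes were taken by symbol: Cdh1, Cdh2, Epcam, Vim, Fn1, Snai1, Snai2, Zeb1, Zeb2 and Twist1. Of these 10 genes, 8 are among the 15384 protein-coding genes of the count table, and Cdh2 and Twist1 were not analysed here. Cells were starved in medium without serum and calcium for 6 to 12 hours and then given recombinant mouse ASPN at 100 ng/mL (asporin, which stromal fibroblasts of tumors secrete). RNA was taken at the start (time 0), at 12 hours and at 24 hours, from 3 wells each. All 9 libraries carry ASPN as the treatment in their labels, those of 0 hours included, and the latter were used as time 0. No library of cells kept for 12 or 24 hours without ASPN is among the 9, so the treatment and the hours in culture cannot be told apart. In bulk RNA, more cells that express a gene and more RNA of it per cell cannot be told apart. The wells were plated in triplicate from 1 cell line, so p-values measure the spread between these wells.

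EMT is the program by which epithelial cells give up their junctions and polarity and take on features of mesenchymal cells, such as a vimentin cytoskeleton, a fibronectin-rich matrix and motility. Epithelial cells are held together by E-cadherin, the product of Cdh1, which needs calcium to bind its partner on the next cell, and by EpCAM, the product of Epcam. The transcription factors Snail (Snai1), Slug (Snai2), Zeb1, Zeb2 and Twist1 bind E-box sequences, and the Snail and Zeb factors are best known as repressors of Cdh1. In many carcinomas the exchange is partial, and epithelial and mesenchymal genes are expressed in the same cells.

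The E-box that Snail and Zeb factors bind most often in repressed epithelial promoters reads CACCTG, or CAGGTG on the other strand. It was searched in the 250 bases before the transcription start in RefSeq's promoters (GRCm38.p6), which hold a window for 5 of the 10 genes (Epcam, Snai1, Vim, Zeb2 and Twist1). The windows of Epcam and Snai1 are shown because they are the ones that hold the motif, with the motif in capitals and 5′ to 3′ on the strand of the gene, here + for both. The Epcam window (chr17:87635729-87635978) holds the motif at 2 places, with its first base at −187 and −19 from the start, and the Snai1 window (chr2:167537945-167538194) holds it once, at −126.
Epcam: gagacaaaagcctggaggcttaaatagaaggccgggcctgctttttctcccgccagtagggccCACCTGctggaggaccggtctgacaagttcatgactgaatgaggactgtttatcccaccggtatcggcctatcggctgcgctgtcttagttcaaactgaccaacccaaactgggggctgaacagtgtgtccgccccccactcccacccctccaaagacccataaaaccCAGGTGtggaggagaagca
Snai1: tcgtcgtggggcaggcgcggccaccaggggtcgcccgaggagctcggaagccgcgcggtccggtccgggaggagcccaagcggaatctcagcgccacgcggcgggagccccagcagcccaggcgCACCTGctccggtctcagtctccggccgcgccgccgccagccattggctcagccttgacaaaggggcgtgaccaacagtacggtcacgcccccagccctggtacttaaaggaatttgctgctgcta
Among all 32851 RefSeq windows of this length, 17.2% hold the motif on either strand at least once and 2.06% hold it at 2 or more places. The windows of Vim, Zeb2 and Twist1 do not hold these letters. The search is a description of the sequence and does not show binding.

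The libraries held 41881191 to 52993821 counts, and a floor of 3 counts corresponds to 0.0551 to 0.0733 in CPM (counts scaled to library size, with TMM factors). The scaling factors lay between 1.04 and 1.07 for the earlier libraries and between 0.899 and 0.914 for those of 24 hours. Libraries of the same time differed by more than sampling noise in each of the 9 pairs (chi-square per degree of freedom between 3.42 and 17.6), so each was taken as 1 replicate. Counting intervals and the floor cover counting error only.

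The 8 EMT genes fell into 2 classes of abundance. Fn1, Vim and Zeb2 had at least 1235 counts in every library, and Snai1, Snai2, Zeb1, Cdh1 and Epcam had at most 18 counts in any library. Per kb of exons at time 0, the level of Fn1 was 481 ± 28.6 CPM per kb (SD, n = 3), rank 90 of 15374 genes with a known length. Vim followed with 48.5 ± 0.856 CPM per kb at rank 895, and Zeb2 with 1.49 ± 0.0664 CPM per kb at rank 8961. These 3 levels were separated by far more than their spread. Snai1 was at 0.0649 ± 0.059 CPM per kb, Cdh1 at 0.00722 ± 0.00685, Epcam at 0.00315 ± 0.00546 and Zeb1 at 0.00259 ± 0.00226, and Snai2 had no count at time 0. Among these 5 genes the spread over the 3 libraries was about as large as the level itself, so that their order is not resolved. The plot of raw counts by gene shows the gap between both classes.

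**Figure D1:**
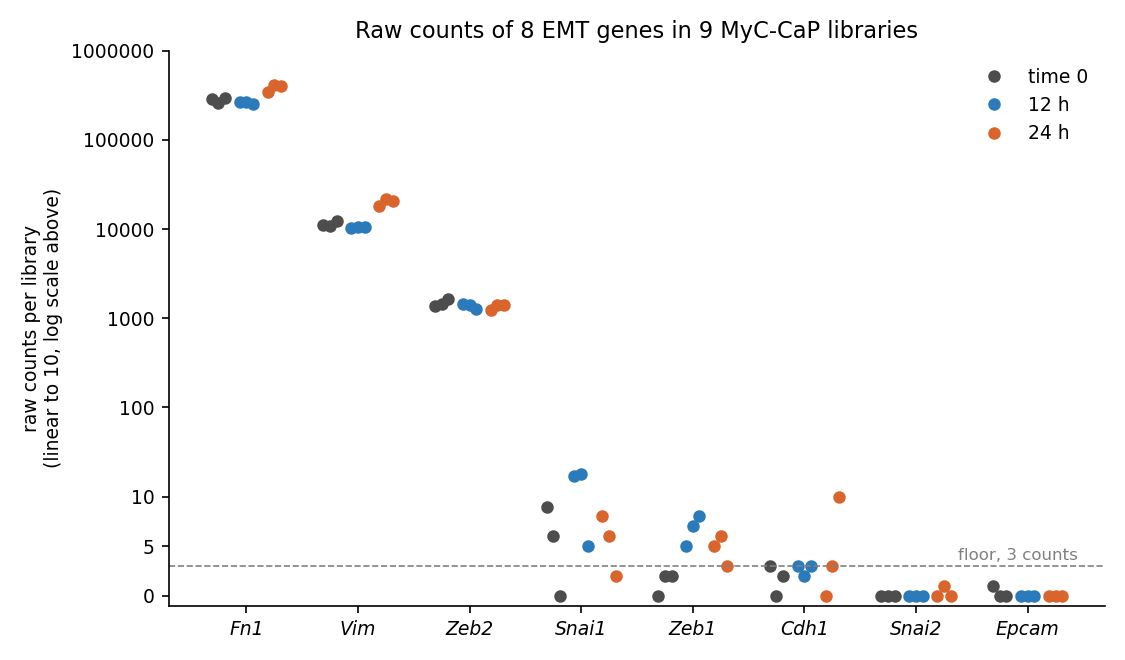
Raw counts per library (vertical axis, linear to 10 and logarithmic above) of 8 EMT genes in the 3 libraries of each time, 1 point per library, with a dashed line at the floor of 3 counts. Fn1, Vim and Zeb2 lie at or above 1235 counts in all 9 libraries, and the other 5 genes lie at or below 18 counts.

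Cdh1 (chr8:106603351-106670246, + strand, GRCm38) had 3, 0 and 2 counts in the 3 libraries at time 0, 3, 2 and 3 counts at 12 hours, and 0, 3 and 10 counts at 24 hours. Only the third library at 24 hours exceeded the floor. Epcam (chr17:87635979-87651129, + strand) had a single count, in the first library at time 0, and 0 counts in the other 8 libraries. A count of 0 allows up to 3 counts, which is 0.0551 to 0.0733 CPM depending on the library. Neither gene passed the filter on low counts in any comparison, and a change was not detectable at this depth. The ratio of summed Cdh1 counts between 24 hours and time 0 was 2.84 (95% exact conditional interval 0.950 to 10.2), from 13 and 5 counts. Without the third library at 24 hours, the log2 ratio went from 1.51 to 0.0053.

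The label of the cells was compared with 10 epithelial markers. Of these, 5 or 6 exceeded the floor in every library of a time, and their summed level was 771 to 797 CPM at time 0, 740 to 768 CPM at 12 hours and 782 to 848 CPM at 24 hours. Claudin 3 (Cldn3), a tight junction protein, held most of that sum, with 26362 to 34994 counts, and the keratin gene Krt8 had 1162 to 2038 counts. Of the markers that define epithelial cells, Cdh1, Epcam, Cldn7 and the splicing factor gene Esrp1 were at or near the floor, and Krt18, whose product pairs with that of Krt8, had 2 to 22 counts. Myc, the oncogene that the line carries in its name, had 1694 to 4469 counts. Thus the epithelial label was borne out by some markers and not by others.

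Markers of other cell types were low. Of 9 fibroblast markers, 5 were in the table and 2 exceeded the floor in every library, Pdgfra with 350 to 689 counts and Dcn with 7 to 29. Their summed level was 13.0 to 14.1 CPM at time 0, 12.2 to 12.5 CPM at 12 hours and 9.09 to 10.3 CPM at 24 hours, and the fibroblast-defining collagen gene Col1a1 had 0 to 8 counts. The summed macrophage markers (3 of 5 in the table) were at 0.291 to 0.794 CPM and the endothelial markers (3 of 4) at 0.0414 to 0.183 CPM. The fibroblast sum was lowest at 24 hours, when Fn1 and Vim were highest, and its part in these results was not tested.

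Genes related to the EMT genes also ranged from abundant to near the floor at time 0 in several of the lists. Among the adherens junction genes, the catenins that link cadherins to actin were abundant, with Ctnnb1 at 67.7 CPM per kb and Ctnna1 at 53.5, whereas the cadherin genes Cdh3 and Cdh4 had 0 to 3 counts and 0 counts in a library. Cldn3 was at 485 CPM per kb, rank 88, next to Fn1, and Ocln, which encodes the tight junction protein occludin, had 0 to 4 counts. Among the epithelial factors, Foxa1 (70.2 CPM per kb), Esrp2 (18.1) and Grhl2 (7.39) were expressed, and Esrp1 had 0 to 3 counts. The galectin gene Lgals1, which is high in mesenchymal cells, was at 1140 CPM per kb, rank 25, whereas Col1a1 and the smooth muscle actin gene Acta2 were near the floor. The strip plot of levels at time 0 sets these groups side by side.

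**Figure D2:**
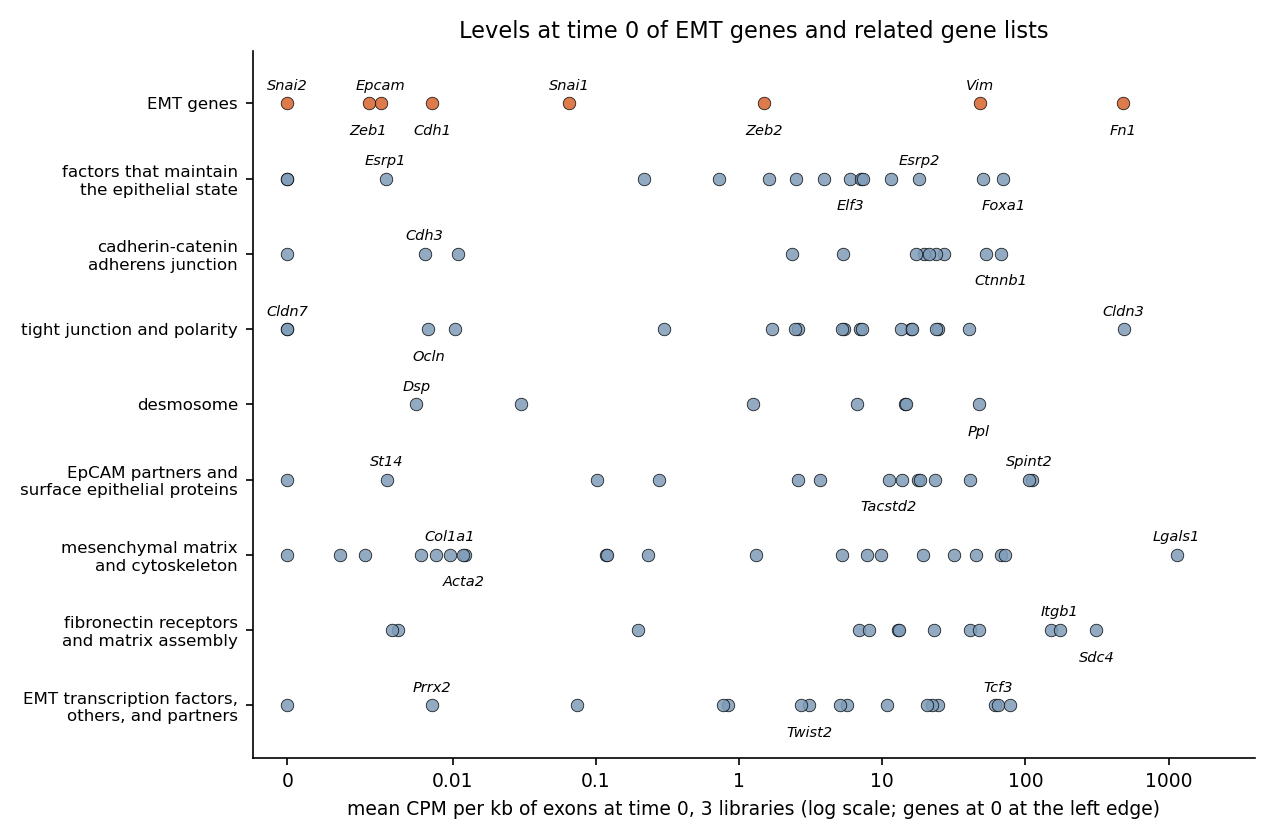
Mean CPM per kb of exons at time 0 over 3 libraries (horizontal log axis, genes at 0 at the left edge) for 8 EMT genes (orange) and the genes of 8 related lists (blue), 1 point per gene. The EMT genes span from no count (Snai2) to 481 CPM per kb (Fn1), and each list with a labelled gene at its right side also has genes near the left edge.

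The libraries of 12 hours were compared with those of time 0 to find early changes. None of the 3 EMT genes above the count filter (Fn1, Vim, Zeb2) was called differentially expressed, where 1.60% of 11410 tested genes were called, 1.5% higher and 0.0964% lower. A call needed a fold change of 1.5 or more and an adjusted p no higher than 0.05 in edgeR's quasi-likelihood test. With all 6 libraries, none of the 3 had an unadjusted p under 0.05, and none was called with DESeq2 or limma-voom.

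Fn1 (chr1:71585520-71653200, − strand) encodes fibronectin, a matrix glycoprotein that integrins assemble into fibrils. At time 0 its level was 6004, 5504 and 5370 CPM in the 3 libraries, and at 12 hours it was 5810, 5745 and 5782 CPM. The ranges overlapped, through the first library of time 0 only, and the log2 fold change was 0.04 (SE 0.042, 95% interval −0.05 to 0.13, adjusted p = 0.619). With a library left out, the log2 fold change of Fn1 was 0.0097 to 0.094, and the lowest edgeR adjusted p among these fits was 0.012. Vim (chr2:13573927-13582826, + strand) encodes vimentin, the intermediate filament protein of mesenchymal cells. Its level was 232, 233 and 225 CPM at time 0 and 224, 230 and 242 CPM at 12 hours. The libraries of 12 hours lay on both sides of those of time 0, and the log2 fold change was 0.02 (SE 0.034, 95% interval −0.06 to 0.09, adjusted p = 0.843). Zeb2 (chr2:44983632-45117395, − strand), the Zeb factor that was expressed, had a level of 28.2, 30.7 and 30.1 CPM at time 0 and 31.8, 30.2 and 29.1 CPM at 12 hours. These ranges overlapped as well, and the log2 fold change was 0.04 (SE 0.051, 95% interval −0.07 to 0.15, adjusted p = 0.737). The intervals of all 3 genes exclude a change of 1.5-fold, which is 0.58 on the log2 scale.

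After 24 hours with ASPN, the levels of Vim and Fn1 were higher than at time 0 and the level of Zeb2 was not called different. Thus 2 of the 3 tested EMT genes were called, both higher, where 28.8% of 11444 tested genes were called and 12.0% were called higher. Vim was at 439, 450 and 442 CPM at 24 hours, and every library of 24 hours exceeded every library of the earlier times. The mean went from 230 ± 4.06 CPM (SD, n = 3) at time 0 to 444 ± 5.77 CPM (n = 3), a 1.94-fold change (log2 fold change 0.95, SE 0.038, adjusted p = 2.8e-10). Fn1 was at 8382, 8645 and 8446 CPM at 24 hours, again without overlap with the earlier libraries. Its mean went from 5626 ± 334 CPM (n = 3) to 8491 ± 137 CPM (n = 3), a 1.51-fold change (log2 fold change 0.60, SE 0.049, adjusted p = 1.3e-07). Fn1 took 0.593% of all counts at time 0, 0.603% at 12 hours and 0.771% at 24 hours. At any fold, 70.9% of tested genes had an adjusted p of 0.05 or less. The 95% interval of the log2 fold change of Fn1, 0.49 to 0.70, includes the threshold of 0.58, so that the call of Fn1 rests on a value just past the threshold. Groups did not overlap for 73.9% of all tested genes in this comparison, which is the background for the separation of Fn1 and Vim.

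Zeb2 was at 30.2, 29.4 and 29.5 CPM at 24 hours, and these libraries lay within the range of time 0. The log2 fold change was 0.01 (SE 0.056, 95% interval −0.11 to 0.13, adjusted p = 0.932). Exons of Zeb2 share 653 of 19942 bases with the antisense gene Zeb2os, and those of Fn1 share 292 of 11685 bases with the antisense gene Apol7d. Whether counting used strand is not stated in the sources used here, so reads from these shared bases cannot be assigned to a strand.

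These values depended on the scaling. With total counts in place of TMM factors, the median over all tested genes at 24 hours was −0.24 on the log2 scale and the calls were 698 higher and 3008 lower, against 1374 higher and 1924 lower with TMM factors. Under that scaling, Fn1 had a log2 fold change of 0.38 and lost its call, Vim had 0.73 and kept it, and Zeb2 had −0.22 (edgeR adjusted p = 0.0059), short of 1.5-fold. Relative to the median of all genes, the changes were 0.62 for Fn1, 0.97 for Vim and 0.02 for Zeb2 under total counts, and the same to 2 decimals with TMM factors. A change of scaling factors moves all genes by nearly the same amount, so this match follows from the arithmetic and is not a check. When transcript length and GC content were corrected for, the log2 fold change of Fn1 was 1.09, where the median of all tested genes was 0.03.

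**Figure D3:**
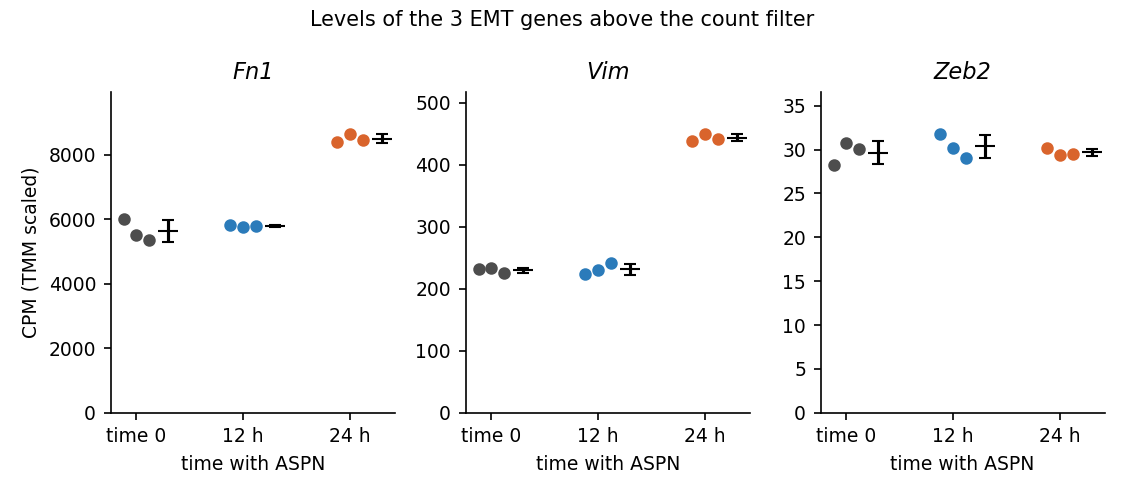
CPM (TMM scaled, axes from 0) of Fn1, Vim and Zeb2 in each library at time 0, 12 hours and 24 hours, with 1 point per library and the mean with SD over 3 libraries beside them. The points of time 0 and 12 hours overlap for all 3 genes, and those of 24 hours lie above them for Fn1 and Vim.

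The libraries of 24 hours were also compared directly with those of 12 hours. The log2 fold change of Vim was 0.96 (SE 0.037, 1.94-fold, adjusted p = 1.6e-10), and 1 of the 3 tested EMT genes was called, where 25.7% of 11394 tested genes were called. Fn1 was higher at 24 hours in all libraries (log2 fold change 0.58, SE 0.029, adjusted p = 1.6e-09), but its 1.49-fold change fell short of the 1.5-fold threshold, and 71.3% of tested genes had an adjusted p of 0.05 or less at any fold. Between 12 and 24 hours, groups did not overlap for 73.9% of all tested genes. For Zeb2 the log2 fold change was −0.01 (SE 0.053, adjusted p = 0.869). Since 24 hours enters both comparisons, the values of Vim and Fn1 against time 0 and against 12 hours share libraries.

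The remaining EMT transcription factors were at the edge of detection. Snai1 (chr2:167538195-167542814, + strand) had 9, 6 and 0 counts at time 0, 17, 18 and 5 counts at 12 hours, and 8, 6 and 2 counts at 24 hours. Both libraries with the highest counts were of 12 hours, and the third library of 12 hours lay within the range of time 0. The ratio of summed Snai1 counts at 12 hours to time 0 was 2.93 (95% exact conditional interval 1.58 to 5.71), from 40 and 15 counts, and that of 24 hours to 12 hours was 0.398 (0.208 to 0.727). These intervals hold counting error alone. The log2 ratio of summed Snai1 counts at 12 hours to time 0 was 1.55, and was 0.89 without the third library of time 0 and 2.32 without the first. With the spread of the libraries and no filter on low counts, edgeR's adjusted p was 0.136 at 12 hours and 0.129 between 12 and 24 hours. Without the third library of 12 hours or without the first library of 24 hours, Snai1 passed the filter and was called lower at 24 than at 12 hours, with log2 fold changes of −1.64 and −1.76 (edgeR adjusted p = 0.0320 and 0.0379). In these fits Snai1 passed only through the libraries of 12 hours, where it is high, so these calls are not independent of the filter. It also passed the filter without the second or the third library of 24 hours and was not called there, with −1.32 and −0.86 (edgeR adjusted p = 0.122 and 0.252). Between 24 hours and time 0, the ratio was 1.17 (0.540 to 2.53), and its log2 value lay between −0.43 (without the third library of time 0) and 1.01 (without the first).

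Zeb1 (chr18:5591860-5775467, + strand) had 0, 2 and 2 counts at time 0, 5, 7 and 8 counts at 12 hours, and 5, 6 and 3 counts at 24 hours. Every later library had more counts than every library of time 0, where groups did not overlap for 27.0% of tested genes at 12 hours and 73.9% at 24 hours. The ratio of summed Zeb1 counts was 5.49 (95% exact conditional interval 1.84 to 22.1) at 12 hours, from 20 and 4 counts, and 3.82 (1.20 to 16.0) at 24 hours, from 14 and 4 counts. Without a filter, edgeR's adjusted p was 0.126 at 12 hours and 0.161 at 24 hours, and Zeb1 was not called. Exons of Zeb1 share 198 of 10266 bases with the opposite-strand gene Gm10125. Snai2 (chr16:14705852-14709385, + strand) had 1 count in all, in the second library of 24 hours. Zeb2 mRNA thus exceeded Zeb1 mRNA per kb in every library, 1.49 against 0.00259 CPM per kb at time 0.

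The change of Vim and Fn1 was set beside genes whose products act with those of the EMT genes. At 12 hours, 4 genes of the 10 lists were called, all higher, and at 24 hours genes were called in both directions. Over all tested genes, the median was −0.0049 at 12 hours and −0.02 at 24 hours, on the log2 scale. The list counts stand beside a background of 1.60% of all tested genes called at 12 hours, and of 12.0% called higher and 16.8% called lower at 24 hours. A list's share near that background is not a result about the list.

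Of the mesenchymal matrix and cytoskeleton genes, 13 of 26 listed were tested, and at 24 hours 7 were higher and 0 lower than at time 0 (median of the list 0.76 on the log2 scale), where 12.0% of all tested genes were higher and 16.8% lower. Cd44, a hyaluronan receptor, went from 53.0 ± 0.689 to 124 ± 12.6 CPM (n = 3; log2 fold change 1.23, SE 0.062, adjusted p = 1.7e-09). Tpm1, which encodes the actin-binding protein tropomyosin, went from 207 ± 7.44 to 437 ± 27.0 CPM (log2 fold change 1.09, SE 0.049, adjusted p = 7.9e-10). The others were Cnn1 (1.03), the receptor tyrosine kinase gene Axl (0.83), Tpm2 (0.82), Lgals1 (0.82) and the matrix gene Postn (0.76), of which Cnn1 had 8 to 36 counts and Postn 41 to 82. At 12 hours 0 of these 13 genes were called. With total counts at 24 hours, 5 were higher and 1 was lower. This list, like the others, was chosen with earlier results of these data known, so its share is not independent of them.

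Of the fibronectin receptor and assembly genes, 11 of 14 were tested, and the changes went in both directions. Sdc4, a heparan sulfate co-receptor for fibronectin, was 798 ± 19.7 CPM at time 0, 1646 ± 107 CPM at 12 hours and 1397 ± 147 CPM at 24 hours (log2 fold change 1.05 at 12 hours, SE 0.042, adjusted p = 1.8e-11, and 0.81 at 24 hours). Itgb6, an epithelial integrin subunit gene, had log2 fold changes of 0.77 at 12 hours and 1.12 at 24 hours, from 62 to 148 counts. At 24 hours Tns1 (−0.91), which encodes the adhesion protein tensin 1, and the integrin gene Itgb3 (−0.81) were lower. Thus 2 genes were called higher at 12 hours, and 2 higher and 2 lower at 24 hours (median −0.02), near the background of 28.8% of all tested genes called at 24 hours. The main fibronectin receptor is the pair of Itga5 and Itgb1. Itgb1 was at 709 ± 10.4, 702 ± 6.14 and 698 ± 22.5 CPM at the 3 times. Itga5 was at 113 ± 2.25, 163 ± 5.31 and 148 ± 20.4 CPM, with log2 fold changes of 0.53 at 12 hours (SE 0.034, adjusted p = 8.9e-09) and 0.40 at 24 hours (SE 0.074, adjusted p = 0.00031), both short of 1.5-fold.

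The factors that maintain the epithelial state were split (12 of 16 tested). Elf3 and Ehf, epithelial factors of the ETS family, were called higher at both times: Elf3 went from 13.2 ± 0.664 CPM at time 0 to 56.3 ± 8.20 at 12 hours and 33.1 ± 4.5 at 24 hours (log2 fold changes 2.09, SE 0.083, adjusted p = 1.4e-11, and 1.33). Ehf had log2 fold changes of 1.55 and 1.81, and Ovol1, a repressor of mesenchymal genes, was called higher at 24 hours (0.62). Lower at 24 hours were 6 genes: Foxa1 (−1.36), a pioneer factor that opens chromatin, Esrp2 (−1.08), Grhl1 (−1.04), Ovol2 (−0.99), Gata3 (−0.98) and Grhl2 (−0.88), an activator of Cdh1. Foxa1 went from 233 ± 7.27 CPM to 90.6 ± 4.15 CPM (SE of the log2 fold change 0.045, adjusted p = 6.4e-11). Hence 2 genes were higher and 0 lower at 12 hours, and 3 were higher and 6 lower at 24 hours (median −0.71), beside 1.60% of all tested genes called at 12 hours and 12.0% higher and 16.8% lower at 24 hours.

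Of the junction genes none was called at 12 hours, when 0 of 9 tested adherens junction genes, 0 of 15 tight junction genes and 0 of 5 desmosome genes passed, beside 1.60% of all tested genes. At 24 hours, when 12.0% of all tested genes were higher and 16.8% lower, 2 adherens junction genes were lower, Nectin1 (−1.25) and Ctnnd1 (−1.0), the latter encoding p120-catenin, which holds cadherins at the membrane. Of the tight junction and polarity genes, 4 were lower, among them Marveld3 (−1.10), Cgn (−0.92) and Pard3 (−0.74), and Tjp3 was higher (0.96). Of the desmosome genes, Pkp2 was higher (0.94) and Evpl lower (−0.90). The median log2 fold changes at 24 hours were −0.40, 0.07 and −0.13. The 2 adherens junction genes became 5 with total counts, and the 5 tight junction genes became 3 (2 higher, 1 lower) after the length and GC correction.

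Partners of EpCAM and surface epithelial proteins (12 of 14 tested) had 0 calls at 12 hours and 4 at 24 hours, near the background of 28.8% at 24 hours. The small GTPase gene Rab25 (0.87, with 15 to 44 counts) and the tetraspanin gene Cd9 (0.62) were higher, and the presenilin gene Psen2 (−0.93) and the protease gene Prss8 (−0.84) were lower, with a median of −0.15. The list of vimentin-network partners (8 of 9 tested at 24 hours), most of which are keratin genes, had 0 calls at 12 hours. At 24 hours it had 2 higher and 3 lower. Krt19 was higher by 0.64 on the log2 scale. Krt14 was called higher with 20 to 24 counts at 24 hours and 1 to 3 at time 0, and since it passed the filter on low counts only through the libraries of 24 hours, its call is not independent of that filter. Keratin genes resemble each other in sequence, so low keratin counts are uncertain. Plec (−1.65), which encodes plectin, the linker of intermediate filaments, Fam83h (−1.56) and Synm (−1.18), which encodes a filament partner of vimentin, were lower. The median of the list, with its keratin genes, was 0.49.

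Other EMT transcription factors and their partners (14 of 19 tested at 24 hours) had 0 calls at 12 hours and 10 at 24 hours, of which 5 were higher and 5 lower (median −0.20). Id1, an inhibitor of basic helix-loop-helix factors, was higher by 0.77, and Twist2, a relative of Twist1, was higher by 0.60. Id3, a relative of Id1, was called higher (1.99, SE 0.68, adjusted p = 0.0129), with 0 to 17 counts at time 0 and 17 to 36 at 24 hours, but was tested only in comparisons with 24 hours, where it is high. Id2, the most abundant of the listed Id genes, was called lower, from 191 ± 7.94 CPM at time 0 to 106 ± 13.0 CPM (−0.84, SE 0.071, edgeR adjusted p = 1.9e-07). The lowest values were those of the forkhead genes Foxq1 (−1.16) and Foxc1 (−1.10). With total counts the split was 1 higher and 5 lower. Of 12 genes that regulate the stability of the Snail protein, 0 were called at 12 hours and 3 were lower at 24 hours (median −0.04), where 16.8% of all tested genes were lower. These were the ubiquitin ligase genes Fbxw7 (−1.95, SE 0.050, adjusted p = 6.9e-12) and Fbxl14 (−1.22), which mark Snail for degradation, and the kinase gene Lats2 (−0.88). The level of the Snail protein was not measured, and the direction of any effect on it was not tested. The plot of log2 fold changes by list shows the few calls at 12 hours and the calls in both directions at 24 hours.

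**Figure D4:**
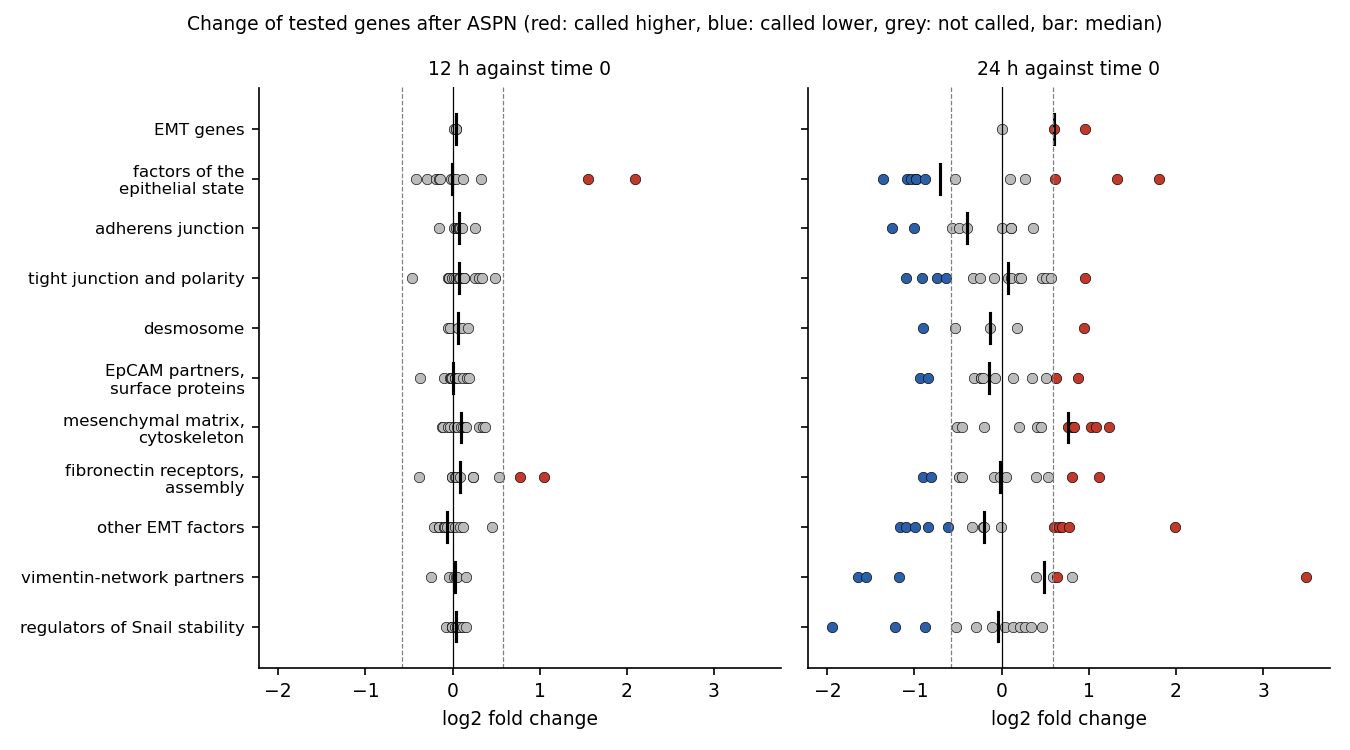
Log2 fold change against time 0 (horizontal axis) at 12 hours (left) and 24 hours (right) of the tested EMT genes and of the tested genes of 10 related lists, 1 point per gene, with calls in red (higher) or blue (lower), a bar at each median and dashed lines at 1.5-fold. At 12 hours 4 list genes and no EMT gene are called, and at 24 hours the mesenchymal list has 7 calls higher and 0 lower. The lists were chosen with earlier results of these data known.

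Between 12 and 24 hours, the counts of list genes called higher and lower were 6 and 0 for the mesenchymal genes, 0 and 6 for the epithelial factors, 4 and 5 for the other EMT factors, and 2 and 3 for the vimentin partners. The 2 genes of the vimentin list called higher were the keratin genes Krt14 and Krt18. These 2 genes, and Id3 among the EMT factors, passed the filter only through the libraries of 24 hours, where they are high. The counts were 0 and 1 for the fibronectin receptors, 0 and 2 for the adherens junction, 0 and 3 for the tight junction, 1 and 1 for the desmosome, 0 and 2 for the EpCAM partners and 0 and 3 for the Snail regulators. Over all tested genes, 10.4% were called higher and 15.3% lower in this comparison, and the lists were not tested against each other. With total counts, 2 mesenchymal genes were called higher and 0 lower in this interval.

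The genes with a pattern over the 9 libraries most like those of Vim and Fn1 were sought among the 10357 genes that had 50 or more normalized counts on average. For Vim these were Emp1 (Pearson r = 0.999 on log2 CPM), which encodes a membrane protein, Nampt (0.999), an enzyme gene of NAD synthesis, and Fam107b (0.998). Emp1 went from 299 CPM at time 0 to 303 at 12 hours and 734 at 24 hours. For Fn1 they were Txnl1 (0.998), Traf3ip2 (0.997) and Setd3 (0.996), and Txnl1 went from 110 to 113 and 166 CPM. The number of genes with r over 0.98 was 839 for Vim and 536 for Fn1, and the libraries fall mainly into 24 hours and the earlier times, so that many genes share this step.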

How the data were processed

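RNA-Seq was used for 9 MyC-CaP libraries (paired-end, 150 bp). According to the study's methods and the labels, the authors trimmed reads with Cutadapt, aligned them to GRCm38.p6 with STAR (GENCODE annotation) and counted them with featureCounts. The deposited values are raw counts of protein-coding genes, without normalization. Positions and lengths come from GENCODE M21 (99.9% of genes found by identifier, 99.1% with the same start and end). The members and gene lists were chosen with earlier results of these data known.

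Each comparison used the 6 libraries of 2 times, filterByExpr, TMM factors and the quasi-likelihood test of edgeR, with no block and with Benjamini-Hochberg adjustment over all tested genes (edgeR 4.0.16, limma 3.58.1, DESeq2 1.42.0, R 4.3.3). A call needed a change of 1.5-fold or more and an adjusted p no higher than 0.05. The study used DESeq2, which is an alternative here. Levels have the SD over libraries, and log2 fold changes their SE. Members under the filter are given as ratios of summed counts, scaled by library, with exact 95% intervals. Levels per kb use the union of exons.

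From each list, the text names up to 2 genes called higher and 2 called lower with the largest change, and every called gene where 5 or fewer were called, except for a few genes that are not reported here. Other list genes, and those named by level, were chosen after their values were seen. For each called member, the 3 genes with the highest correlation are named. Alternatives were RLE, upper-quartile and total-count scaling, no filter, a minimum of 10 counts per library, one fit to all 9 libraries, a block for the replicate number, DESeq2, limma-voom, loess offsets for length and GC content (span 0.3, with and without the block) and leaving out each library. The scripts were tested on simulated data.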

Additional observations from a re-analysis of the deposited data

Results flagged for a closer look

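The change of Vim differed between the times. Its log2 fold change against time 0 was 0.02 at 12 hours and 0.95 at 24 hours. The direct comparison of 24 with 12 hours, which tests the difference of both, gave 0.96 (edgeR adjusted p = 1.6e-10). All 3 libraries of 24 hours lay above all 3 of 12 hours, where groups did not overlap for 73.9% of all tested genes. Hours in culture and the treatment cannot be told apart in this difference.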

How the results depend on the processing

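The call of Vim at 24 hours held under the 11 alternatives and with each library left out, with log2 fold changes of 0.73 to 0.98 against time 0 and 0.74 to 0.99 against 12 hours. Values near 0 changed sign under some alternatives. For Vim at 12 hours these were −0.0038 with total counts, −0.015 with the length and GC correction and −0.015 with this correction and the replicate block, and −0.015 to 0.039 with a library left out. For Zeb2 at 24 hours against time 0 they were −0.22 with total counts (edgeR adjusted p = 0.0059), −0.0068 with the correction, −0.0066 with the correction and the replicate block, and −0.0098 to 0.039 with a library left out. For Zeb2 at 24 against 12 hours they were 0.013 with upper-quartile factors and −0.040 to 0.023 with a library left out.

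The count of EMT genes called at 24 hours against time 0 was 2, and was 1 with total counts and 1 to 2 with a library left out. It was 1 without the third library of time 0, where Fn1 had 0.58, just under the threshold. At 24 against 12 hours the count was 1, and was 2 with upper-quartile factors, 2 with the length and GC correction and 2 with this correction and the replicate block, where Fn1 passed with 0.60, 1.06 and 1.06. It was 1 to 2 with a library left out, the added gene being Snai1, called lower without the third library of 12 hours or the first of 24 hours, where it passed the filter only through the libraries of 12 hours. With the replicate block alone, 0, 2 and 1 EMT genes were called in the 3 comparisons, as without it. Same-numbered libraries had correlations of deviations of −0.0978 to 0.0556, so the numbers do not pair the libraries.

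Of 330 list counts under alternatives, 310 stayed within 1.5 times the reported count, as did 178 of 180 with a library left out. Depth limits Cdh1, Epcam, Snai1, Snai2 and Zeb1, for which only large changes could be seen. Levels per kb depend on the length used: by the longest transcript, Fn1 was at 677, Vim at 78.6 and Zeb2 at 3.25 CPM per kb at time 0, in the same order.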

Other observations

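Other cadherins were looked at after the level of Cdh1 was seen. The table holds 9 genes named Cdh and a number, and 1 of them, Cdh24, passed the count filter at 24 hours. Cdh24, a cadherin that binds catenins, had 125 to 243 counts in a library and a level of 3.57 ± 0.805 CPM (SD, n = 3) at time 0, 3.15 ± 0.484 CPM at 12 hours and 4.57 ± 0.806 CPM at 24 hours. Its log2 fold change at 24 hours was 0.36 (SE 0.18, edgeR adjusted p = 0.0912), so it was not called. At 1.02 CPM per kb at time 0 it was above Cdh1 (0.00722) and Cdh3 (0.00637), and the remaining cadherins, Cdh4, Cdh5, Cdh8, Cdh15, Cdh17 and Cdh23, had at most 7 counts in any library.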
